A study of Homo sapiens with 8 samples.

Results

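BCL2L11 encodes BIM, a pro-apoptotic member of the BCL2 family, and its messenger RNA was read by 7 of the 54675 probe sets on each array. A probe set is a group of short probes reported as 1 intensity. All probe sets that the platform annotation gives to BCL2L11 and to no other gene were taken, and none was left out for a low value. The RNA came from CUTLL1, an established human cell line of T-cell acute lymphoblastic leukemia in which NOTCH1 is active. Cells were cultured for 48 h with both compounds together (PF-03084014 and dexamethasone at 1 microM each, the combination), with 1 microM dexamethasone, with 1 microM PF-03084014, or with the DMSO vehicle, and each of the 4 groups has 2 arrays. Dexamethasone is a synthetic glucocorticoid, and PF-03084014 inhibits gamma-secretase, the protease that releases the active part of NOTCH receptors. All groups share a single cell line, so nothing here speaks to variation among leukemias. Whether replicates were separate cultures is not stated in the labels. The spread between them may therefore be technical, and the p-values measure no more than that spread.

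BIM is a BH3-only protein: it carries the BH3 segment of the BCL2 family without the other shared segments. It binds survival proteins such as BCL2, BCL-XL and MCL1 and can directly activate BAX and BAK, the effectors that open the outer mitochondrial membrane. The gene gives several spliced forms, of which BIM-EL, BIM-L and BIM-S are the best known, and they differ in whether they hold the dynein-binding part. BIM is well known for its part in the death of lymphoid cells after glucocorticoid treatment or loss of cytokine, and FOXO3 is among the factors known to activate its transcription. In bulk RNA, a larger share of cells that carry a transcript and more transcript per cell cannot be told apart.

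RefSeq lists 18 curated transcripts for BCL2L11, on chromosome 2, and no other gene in its table overlaps it. The promoter window is shown because the gene was higher after a glucocorticoid and because FOXO factors are known to act on it. It is taken from RefSeq on GRCh38.p14, runs from 250 bases before to 50 bases after the gene's start on the plus strand, and lies at chr2:111120664-111120963. Capitals mark the FOXO motif.
BCL2L11 promoter: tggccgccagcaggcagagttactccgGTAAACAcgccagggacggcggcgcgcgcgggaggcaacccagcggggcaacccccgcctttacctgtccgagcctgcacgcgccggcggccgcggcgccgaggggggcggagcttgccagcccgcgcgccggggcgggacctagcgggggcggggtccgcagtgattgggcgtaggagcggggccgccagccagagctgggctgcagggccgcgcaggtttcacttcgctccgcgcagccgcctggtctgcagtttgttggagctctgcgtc
The motif searched for FOXO factors was GTAAACA on either strand, and it occurred 1 time, ending 216 bases before the start. That motif is held by 3.423% of the 35116 promoter windows of the same 300 bases. The palindrome of the glucocorticoid receptor, searched as AGAACA, any 3 bases and then TGTTCT, reads the same on both strands. It was not found in this window and is held by 0.002848% of the windows. The arrays did not measure the binding of any factor.

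The 7 probe sets differ in the kind of sequence record listed for them. For 1553096_s_at, 1553088_a_at and 208536_s_at it is a RefSeq transcript that is still listed for the gene. For 1558143_a_at and 1555372_at it is a cDNA record. For 225606_at and 222343_at it is an expressed sequence tag, which is a single read of a cDNA clone. The sets are named below by the kind of record listed. The position of each set's probes within the transcripts was not used here. Intensities of different probe sets depend on their own probes, so each set is compared with itself across treatments and the levels of different sets are not ranked as amounts of transcript.

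One array stood apart. The median intensity was 76.3 on combination replicate 2 and 61.8 to 63.9 on the other 7 arrays, and the combination replicates differed more from each other, with an SD of 0.567 for their log2 difference over probe sets, beside 0.369 to 0.382 elsewhere. Known markers of the treatments were read as a check. TSC22D3, a glucocorticoid-induced gene, rose by 3.84 log2 units in the combination (limma adjusted p = 0.00159) and by 3.34 with dexamethasone (adjusted p = 0.00727). FKBP5, the other dexamethasone marker listed, rose by 1.01 in the combination (adjusted p = 0.00460). With dexamethasone alone its change was 0.68 and was not called (adjusted p = 0.0676). NRARP, a NOTCH target, fell by 2.66 with PF-03084014 (adjusted p = 0.0185). All 8 T-lineage markers exceeded an intensity of 100 on every array, and their summed intensity was 35855 to 41470 in the combination, 37022 to 37474 with dexamethasone, 37048 to 38353 with PF-03084014 and 35557 to 36343 in DMSO. The summed intensity of 4 measured B-lineage markers was 646 to 760 in the combination, 595 to 607 with dexamethasone, 546 to 580 with PF-03084014 and 477 to 523 in DMSO, with 2 of the 4 under 100 on every array. Across the groups the B-lineage sum took the order of some BCL2L11 probe sets below, but not of all. Its part in the BCL2L11 values was not tested. Its rise was carried by CD79A, which read 504 and 585 in the combination and 297 and 300 in DMSO (change of 0.86, limma adjusted p = 0.0106), while the changes of MS4A1, CD79B and PAX5 were -0.61, -0.17 and 0.018 (adjusted p = 0.264, 0.794 and 1).

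Changes are given in log2 units between means of 2 arrays, with the standard error of the fit, and a probe set is called at a Benjamini-Hochberg adjusted p under 0.05 over all 54613 probe sets tested with limma. Every one of the 7 probe sets had both combination arrays above both DMSO arrays, an arrangement that 26.2% of all probe sets showed. Of the 7, 4 were called higher against DMSO and none lower, where 3.18% of all probe sets were called higher. The median change of the 7 was 1.40, and that of the 6 sets without the dim 208536_s_at was 1.51, beside a median of 0.022 over all probe sets. Shifting all arrays to a common median moved that median over all probe sets to -0.11, and the share of higher calls among all calls was 27.4% after that shift and 50.3% as deposited.

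The probe set 225606_at, with the highest mean of the 7, read 3115 and 3265 in the combination, 1395 and 1397 with dexamethasone, 759 and 858 with PF-03084014, and 667 and 692 in DMSO. The 4 groups did not overlap, and the combination arrays were the highest by a wide margin, followed by dexamethasone, PF-03084014 and DMSO. The change for the combination against DMSO was 2.23 ± 0.067, or 4.69-fold (limma, adjusted p = 0.00247).

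The cDNA-derived set 1555372_at read 413 and 436 in the combination, 182 and 164 with dexamethasone, 116 and 114 with PF-03084014, and 96.3 and 105 in DMSO. Its groups took the same order without overlap, and it rose by 2.07 ± 0.095 in the combination against DMSO (limma, adjusted p = 0.00314). The other cDNA-derived set, 1558143_a_at, read 753 and 760 in the combination, 421 and 442 with dexamethasone, 263 and 221 with PF-03084014, and 227 and 257 in DMSO. Its combination and dexamethasone arrays stood clear of the rest, whereas its PF-03084014 and DMSO arrays overlapped. It rose by 1.65 ± 0.11 in the combination against DMSO (limma, adjusted p = 0.00554). These 3 calls held with each array left out in turn.

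The tag-derived set 222343_at read 255 and 200 in the combination, 111 and 126 with dexamethasone, 64.9 and 45.8 with PF-03084014, and 81.3 and 94.3 in DMSO. Here the PF-03084014 arrays were the lowest, below both DMSO arrays, and the groups did not overlap. Of the PF-03084014 arrays 1 lay under the 95th percentile of 27 bacterial control probe sets, which measure background. Its change in the combination against DMSO was 1.37 ± 0.23 (limma, adjusted p = 0.0391), a call that was lost whichever array was left out, with adjusted p values of 0.0538 to 0.165.

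The 2 RefSeq-derived sets with higher signals behaved differently. The set 1553096_s_at read 1292 and 2214 in the combination, 1179 and 1141 with dexamethasone, 864 and 917 with PF-03084014, and 1054 and 1008 in DMSO. Combination replicate 1 was only a little above the dexamethasone arrays and combination replicate 2 far above all others, and the PF-03084014 arrays lay below the DMSO arrays. The change in the combination against DMSO was 0.72 ± 0.25 (limma, adjusted p = 0.175).

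The set 1553088_a_at read 393 and 658 in the combination, 364 and 358 with dexamethasone, 375 and 351 with PF-03084014, and 312 and 332 in DMSO. The dexamethasone and PF-03084014 arrays overlapped, and again combination replicate 2 alone was far above the rest. Its change in the combination against DMSO was 0.66 ± 0.24 (limma, adjusted p = 0.193). Without combination replicate 1 the changes of 1553096_s_at and 1553088_a_at were 1.10 and 1.03, and without combination replicate 2 they were 0.33 and 0.29. Each of these fits rests on 1 combination array and does not measure how that group varied.

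The third RefSeq-derived set, 208536_s_at, was dim: it read 119 and 71.2 in the combination, 73.6 and 60.8 with dexamethasone, 33.6 and 36.0 with PF-03084014, and 36.4 and 33.2 in DMSO. Both PF-03084014 arrays and both DMSO arrays lay under that percentile of the bacterial controls of their own array, as did 1 of the 2 combination arrays, so the DMSO level is only an upper bound. With the DMSO level set at that percentile, the dexamethasone mean, from 2 arrays above it, was at least 1.23-fold higher than DMSO, and no bound is given for the combination, which 1 array measured above the controls. The fitted change in the combination against DMSO depended on the floor: it was 1.40 ± 0.29 (limma, adjusted p = 0.0574), and 0.52 with a floor of 64 (adjusted p = 0.417). With the floor of 16 used throughout it was called without combination replicate 2 (1.78, adjusted p = 0.0288) and without combination replicate 1 (1.03, adjusted p = 0.0369). In those fits the remaining combination array is assumed to vary like the other groups.

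Dexamethasone alone gave the same direction in every set but a single call. All 7 probe sets had both dexamethasone arrays above both DMSO arrays, an arrangement shown by 21.8% of all probe sets. The median change was 0.78, or 0.60 without 208536_s_at. Only 225606_at was called higher, with a change of 1.04 ± 0.067 (limma, adjusted p = 0.0379), where 0.0330% of all probe sets were called higher. That call was lost in 7 of the 8 fits that left out an array, all but the one without DMSO replicate 2, although the change stayed between 1.01 and 1.07 and the adjusted p no higher than 0.088. The changes of 1558143_a_at and 1555372_at were 0.84 ± 0.11 and 0.78 ± 0.095 (adjusted p = 0.168 and 0.154). For 1553096_s_at and 1553088_a_at they were 0.17 and 0.16 (adjusted p = 0.992 and 0.993).

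PF-03084014 alone moved no BCL2L11 probe set past the threshold, whether higher or lower, where 0.139% of all probe sets were called higher. At an unadjusted p under 0.05, 2 of the 7 passed, a count without the share of all probe sets beside it. The median change was -0.00037, or 0.086 without 208536_s_at. In 3 sets both PF-03084014 arrays lay above both DMSO arrays, which 23.5% of all probe sets showed, and in 2 sets both lay below, which 21.1% showed. The changes ran between 0.25 ± 0.067 for 225606_at (limma, adjusted p = 0.290) and -0.68 ± 0.23 for 222343_at (adjusted p = 0.410). Of the PF-03084014 arrays of 222343_at, 1 of 2 was above the controls, and its change was -0.44 with a floor of 64 (adjusted p = 0.733).

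Some of the probe sets were called higher in the combination than with either compound alone. Against dexamethasone, 6 of the 7 sets had both combination arrays above both dexamethasone arrays, where 25.8% of all probe sets did, and 3 were called higher, where 1.24% were. The exception in the arrangement was 208536_s_at, whose groups overlapped. The called sets were 225606_at, with a change of 1.19 (limma, adjusted p = 0.0116), 1555372_at, with 1.29 (adjusted p = 0.0153), and 1558143_a_at, with 0.81 (adjusted p = 0.0347). The first of these held whichever array was left out. The call on 1555372_at was lost without either PF-03084014 array or either dexamethasone array (adjusted p = 0.0510 to 0.0607), and that on 1558143_a_at without every array except combination replicate 1 (adjusted p = 0.0567 to 0.172).

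Against PF-03084014, all 7 sets had both combination arrays above both PF-03084014 arrays, where 22.2% of all probe sets did, and 4 were called higher, where 0.428% were. The changes of the called sets were 1.98 for 225606_at (limma, adjusted p = 0.00469), 1.88 for 1555372_at (0.0113), 1.65 for 1558143_a_at (0.0176) and 2.05 for 222343_at (0.0396). The last was set against a PF-03084014 group that 1 of 2 arrays measured above the controls, and it was 1.81 with a floor of 64 (adjusted p = 0.0443). Without dexamethasone replicate 1 none of the 4 was called, with an adjusted p of 0.0520 for 225606_at, and without dexamethasone replicate 2 only 225606_at was. The call on 222343_at was lost without any single array other than combination replicate 1, and the fit without that array rests on 1 combination array.

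The interaction of the compounds, that is the combination change minus the sum of the changes with each compound alone, was positive in all 7 sets and called in none, where 0.00366% of all probe sets were called higher. For 225606_at the combination change was 2.23, against a sum of 1.29 for the single compounds, which left 0.94 ± 0.095 (limma, unadjusted p = 0.000154, adjusted p = 0.154). For 1555372_at the combination change was 2.07 against a sum of 0.97, and for 1558143_a_at it was 1.65 against 0.84. In all, 4 of the 7 sets had an unadjusted p under 0.05. The shares of all probe sets under that unadjusted p or with a positive interaction are not given here. These counts therefore have no background beside them, and the 7 sets read the same gene. The count of calls rested on single arrays: without combination replicate 1, 4 sets were called, and without PF-03084014 replicate 2, 225606_at was called (adjusted p = 0.0440).

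The disagreement among the probe sets was tested within arrays, as the log2 intensity of each set minus that of 225606_at, which takes out anything that scales a whole array. The same differences were fitted for the 21316 probe sets of 10523 genes that share a gene with a brighter set. The base was the set with the highest mean over all 8 arrays, combination arrays included. This choice favours a strongly rising base, and so negative differences against DMSO. On the DMSO arrays 1553096_s_at was the brighter set, with 1054 and 1008 beside 667 and 692 for 225606_at. In the combination against DMSO, 2 of the 6 differences were called, where 1.31% of all such differences were. The response of 1553096_s_at was smaller than that of 225606_at by 1.52 ± 0.21 log2 units (95% interval of the difference -2.01 to -1.02; limma, adjusted p = 0.0326). That of 1553088_a_at was smaller by 1.57 ± 0.23 (interval -2.10 to -1.04; adjusted p = 0.0360). With 1553096_s_at as the base instead, 1 difference was called. The response of 225606_at was then larger by 1.52 ± 0.21 (limma, adjusted p = 0.0355).

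The remaining 4 sets were not shown to differ from 225606_at. The difference was -0.16 for 1555372_at, with an interval of -0.53 to 0.22 (limma, adjusted p = 0.604), -0.58 for 1558143_a_at (adjusted p = 0.119), and -0.87 for 222343_at (0.132). For 208536_s_at, with its DMSO level under the controls, the fitted difference was -0.83 (adjusted p = 0.166), and -1.71 with a floor of 64, where it was called (adjusted p = 0.0459). The called differences were -1.87 and -1.91 without combination replicate 2, and -1.16 and -1.23 without combination replicate 1. Those fits hold 1 combination array and take their spread from the other groups, so they do not measure how the combination varied. The calls held without either PF-03084014 array. They were lost without either DMSO array or either dexamethasone array, with differences of -1.46 to -1.59 and adjusted p values of 0.0984 to 0.269.

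On single combination arrays against the DMSO mean, 1553096_s_at stood at 1.25-fold and 2.15-fold and 1553088_a_at at 1.22-fold and 2.04-fold. The corresponding values were 4.58-fold and 4.80-fold for 225606_at, 4.10-fold and 4.33-fold for 1555372_at, and 3.12-fold and 3.15-fold for 1558143_a_at. For 222343_at they were 2.91-fold and 2.28-fold, and for the dim 208536_s_at 3.42-fold and 2.05-fold. On both arrays 1553096_s_at and 1553088_a_at were below 225606_at, 1555372_at, 1558143_a_at and 222343_at, whereas on combination replicate 2 the set 208536_s_at lay between them. The difference between 1553088_a_at and 1553096_s_at themselves was -0.056 ± 0.14 (limma, adjusted p = 0.846).

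With the single compounds no difference between probe sets was called. In dexamethasone against DMSO the difference was -0.87 for 1553096_s_at and -0.87 for 1553088_a_at (limma, unadjusted p = 0.00396 and 0.00532, adjusted p = 0.998 and 1), where 0.00469% of all differences were called. In PF-03084014 against DMSO 0 of 6 were called, 1 at an unadjusted p under 0.05, where 0.0188% of all differences were called. For the combination 0 of 6 were called against dexamethasone, 3 at an unadjusted p under 0.05, beside 0.0141% of all differences, and 0 of 6 against PF-03084014, 2 at an unadjusted p under 0.05, beside 0.0188%. In the interaction none of the 6 was called or passed at an unadjusted p under 0.05, and 0% of all differences were called. The shares given are of called differences, and none is given for the counts at an unadjusted p.

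The smaller response can also be stated as a percentage of the change of 225606_at in the combination against DMSO. It was 32.1% for 1553096_s_at and 29.5% for 1553088_a_at, against 73.9% for 1558143_a_at, 93.0% for 1555372_at, and 61.2% for 222343_at. Among other genes whose brightest probe set was at least 2-fold higher, the median percentage depended on the intensity of the second probe set: 89.8% for 34 sets with a mean over 400, 60.5% for 71 sets between 100 and 400, and 10.4% for 412 sets under 100. Of the 34 brightest, 3 had a smaller percentage than 1553096_s_at, and of the 71 in the middle class 23 had a smaller one than 1553088_a_at. The response of 1553096_s_at was thus near the low end of its intensity class, and that of 1553088_a_at was not. The mean intensity of 1553088_a_at was 393, just under the limit of 400, and its percentage was below that of 1553096_s_at. The different placing of these sets therefore rests on the class limit. Over the 517 sets together, 4.45% of the differences were called.

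Over the 8 arrays the log2 values of 225606_at correlated with those of 1555372_at at r = 0.993 and with those of 1558143_a_at at r = 0.980. The coefficients were 0.912 for 208536_s_at, 0.874 for 222343_at, 0.830 for 1553096_s_at and 0.755 for 1553088_a_at. These are descriptions over arrays that share 4 treatments and 1 scale.

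Among the genes whose products work beside BIM, each represented by its brightest probe set, few were called. In the combination against DMSO, 4.97% of 19775 genes were called higher and 4.20% lower. Of the 6 measured other BH3-only genes 1 was higher, 1 lower and 4 were not called, with a median change of -0.25 beside 0.064 over all genes. HRK, which was not called, lay under the 95th percentile of the bacterial controls on every array except those of DMSO. Its lack of a call does not show that it was unchanged, and the median rests partly on its fitted change of -0.29. BMF, a BH3-only protein that binds survival proteins as BIM does, read 579 and 518 in the combination, 247 and 284 with dexamethasone, 71.5 and 100 with PF-03084014, and 59.0 and 54.4 in DMSO. Its groups did not overlap and stood in the same order as those of 225606_at. It rose by 3.27 ± 0.19 in the combination against DMSO (limma, adjusted p = 0.00484). The DMSO readings of BMF lay just above the 95th percentile of the bacterial controls of those arrays, 54.8 and 54.3. The size of its changes against DMSO therefore rests on a level near background. With dexamethasone alone its change was 2.23 (adjusted p = 0.0693). PMAIP1, which encodes NOXA, a BH3-only partner of MCL1, fell by 0.52 ± 0.062 in the combination against DMSO (adjusted p = 0.0167).

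Of the 6 survival genes whose proteins bind BIM, 1 was higher and 5 were not called in the combination against DMSO. BCL2L1, which encodes BCL-XL, read 2856 and 2846 in the combination, 2470 and 2404 with dexamethasone, 2798 and 2854 with PF-03084014, and 2160 and 2182 in DMSO. The combination and PF-03084014 arrays were close together and above the others. It rose by 0.39 ± 0.030 in the combination (limma, adjusted p = 0.00715) and by 0.38 ± 0.030 with PF-03084014 (adjusted p = 0.0307), each against DMSO. The 3 effector genes and the 2 dynein light chain genes gave no call in any contrast. The effector gene BOK and the survival gene BCL2A1 lay under the 95th percentile of the bacterial controls on every array. The survival genes BCL2L2 and BCL2L10 lay under it on both combination arrays. All of these are counted as not called, which does not show that they were unchanged.

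Of 10 measured factors known to act on BCL2L11 transcription or messenger stability, 2 were higher, 2 lower and 6 not called in the combination against DMSO, with a median of 0.16. Among those not called, FOXO1 and MIR17HG lay under the 95th percentile of the bacterial controls on every array. Their lack of a call does not show that they were unchanged. NR3C1, the glucocorticoid receptor, read 6631 and 6413 in the combination, 3947 and 3906 with dexamethasone, 3430 and 3555 with PF-03084014, and 2932 and 3384 in DMSO. Both combination arrays stood far above the rest, and it rose by 1.05 ± 0.073 against DMSO (limma, adjusted p = 0.00622) and by 0.73 against dexamethasone (adjusted p = 0.0216). KLF13, a Kruppel-like transcription factor, rose by 0.97 (adjusted p = 0.00662), and RUNX3, a runt-domain transcription factor, fell by 1.08 (adjusted p = 0.00573), both in the combination against DMSO.

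Of 6 measured genes of the ERK pathway that act on BIM protein, 1 was higher and 1 lower in the combination against DMSO. TRIM2, a ubiquitin ligase known to act on phosphorylated BIM, rose by 0.92 (limma, adjusted p = 0.0216), and MAPK3, the kinase ERK1, fell by 0.38 (adjusted p = 0.0336). Of the 3 measured neighbours of BCL2L11 on chromosome 2, BUB1, a mitotic checkpoint kinase, fell by 0.28 (adjusted p = 0.0313), and the change of MIR4435-2HG was -0.85 (adjusted p = 0.0947). ACOXL was under the 95th percentile of the bacterial controls on all 8 arrays, so no change is given for it. No neighbour was called higher.

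With the single compounds these lists gave few calls against DMSO. For dexamethasone none of the 36 measured genes was called, where 0.0607% of all genes were higher and 0.0303% lower. For PF-03084014, where 0.228% of all genes were higher and 0.243% lower, BCL2L1 was higher and RUNX3 lower, with a change of -0.76 for RUNX3 (limma, adjusted p = 0.0425). These comparisons share the DMSO arrays.

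The genes whose pattern was most like that of 225606_at were sought among 10791 genes with a mean intensity of at least 100. By Pearson r over the 8 arrays the nearest 8 were ATP6V0A1 (0.994), EOMES (0.994), ABITRAM (0.993), KIF21A (0.991), ABCC5 (0.991), SMAD3 (0.989), DIPK1A (0.989) and CROCC (0.988). By the distance between the 3 changes against DMSO, in log2 units, they were TARS3 (0.414), HKDC1 (0.450), ABCC5 (0.501), FAM238B (0.568), ISG20 (0.585), EOMES (0.606), BTG1 (0.636) and CRISPLD1 (0.651). The 2 genes in both lists were ABCC5, a membrane transporter of organic anions, and EOMES, a T-box transcription factor. They were chosen for this likeness, so no test is given.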

How the data were processed

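Per sample, 200 ng of total RNA was turned into labelled cRNA with a kit that amplifies from the 3 prime end, per the labels' protocols. The authors deposited probe-set intensities on a linear scale. How they were summarised, background-corrected and normalized is, in the sources used here, not given. Intensities under 16 were set to 16 and converted to log2. The 62 control probe sets were left out, which left 54613. limma 3.58.1 in R 4.3.3 fitted group means to all 8 arrays with 4 residual degrees of freedom. Its eBayes step used an intensity trend and added a median of 1.11. Tests were two-sided, for 6 contrasts, and adjusted by Benjamini-Hochberg within each. The spread is pooled over groups, so errors of contrasts with the more variable combination arrays may be too small. The number of arrays limits precision: the median standard error was 0.212 log2 units. A second fit took the difference of each probe set from the brightest set of its gene. The fits were tested on simulated data.

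Probe sets were assigned from the platform annotation, with symbols updated through Entrez identifiers for 41043 sets. Of the 54675 sets, 41091 tested sets carry 1 gene, 1801 several and 11777 none. Sets of several genes named no gene, so some listed genes, such as BBC3, RUNX1, HSPA8 and ANAPC1, were not analysed here. The lists were other BH3-only genes, survival genes, effectors, dynein light chains, factors acting on BCL2L11, the ERK pathway, neighbours, treatment markers and markers of T cells, B cells, myeloid cells, the erythroid and megakaryocyte lineages, and epithelium with stroma. The probe sets and lists were chosen with earlier results of these data known. Every BCL2L11 probe set is named, as are called BH3-only genes, up to 3 called genes of other lists per contrast, NR3C1, TSC22D3, the neighbours and the 8 genes nearest by each measure of likeness. The summed intensity over all arrays was 182 to 279 for 4 myeloid markers, 146 to 255 for 3 erythroid and megakaryocyte markers and 188 to 343 for 4 epithelial and stromal markers, with 3, 2 and 3 of them under 100 on every array.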

Additional observations from a re-analysis of the deposited data

How the results depend on the processing

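Other settings tried were quantile normalization, a common median, a floor of 64, a pseudocount of 16, a filter on dim probe sets, single-gene probe sets only, no intensity trend, array weights, only the groups compared, a replicate block, a gene's probe sets averaged, every pair of probe sets, and each array left out. The brightest probe set chosen on the DMSO arrays was added after the values were seen. The dim filter left out 208536_s_at.

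For the combination against DMSO, 4 probe sets were called, 0 with only the groups compared (225606_at at an adjusted p of 0.118) and 3 to 6 with an array left out. In that contrast 225606_at kept its call in 17 of 18 alternatives, with changes of 2.10 to 2.26. For dexamethasone against DMSO the 1 call became 0 under quantile normalization, no intensity trend, only the groups compared and the replicate block, and 0 to 1 with an array left out. The change of 225606_at was 1.01 to 1.07 throughout, with adjusted p values of 0.00249 to 0.153. For the combination against dexamethasone the 3 calls became 0 with only the groups compared and 1 to 5 with an array left out. For the combination against PF-03084014 the 4 calls became 2 with array weights, 0 with only the groups compared, 1 with the replicate block and 0 to 7 with an array left out. The interaction gave 0 to 4 calls with an array left out. Fits of only the groups compared hold fewer arrays. The counts above leave out some settings that lost 1 call. Quantile normalization gave 3 calls for the combination against DMSO and 3 against PF-03084014. A common median gave 2 against dexamethasone. Over the 10 settings other than left-out arrays, the combination call on 222343_at was lost in 4 against DMSO and 5 against PF-03084014. Against dexamethasone, 1558143_a_at lost its call in 4 and 1555372_at in 1. Against PF-03084014 they lost it in 3 and 2.

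The 2 called differences from 225606_at in the combination against DMSO became 0 with every pair of probe sets, no intensity trend, array weights and only the groups compared, 0 to 3 with an array left out, and 1 when 1553096_s_at, the brightest set on the DMSO arrays, was the base. The cause was not tested. Left-out fits gave 0 to 1 differences for the combination against dexamethasone and 0 to 3 against PF-03084014.

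With the mean of all its probe sets, BCL2L11 changed by 0.62 with dexamethasone (adjusted p = 0.108) and by -0.041 with PF-03084014 (adjusted p = 0.925), against 1.04 and 0.25 by the brightest set. In the combination that mean gave 1.44 (adjusted p = 0.00196). Changes near 0 turned sign for PF-03084014 against DMSO: 1558143_a_at was 0.024 with quantile normalization and -0.12 to 0.12 with an array left out, and 208536_s_at was -0.067 to 0.065. The interaction of 1553088_a_at was -0.051 to 0.69, the lowest without combination replicate 2.

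The correlations of deviations between same-numbered arrays were -0.0055 to 0.085, so no large shift shared by those arrays was seen. They cannot show whether same-numbered samples were paired by culture or day, which the labels do not state. Shifting arrays to a common median changed the split of calls over all probe sets to 686 higher and 1821 lower for the combination against DMSO (1737 and 1717 as deposited), to 170 and 802 against dexamethasone (676 and 904), and to 30 and 0 for dexamethasone against DMSO (18 and 12).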
